A study of Mus musculus with 2 samples.

Results

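Naive-like CD8 T cells were 78 of the 34768 barcodes called cells in 2 single-cell RNA-seq libraries of mouse blood, 56 from WT mice and 22 from APP/PS1 mice. They were chosen by their counts of unique molecular identifiers (UMIs, each counted as 1 captured RNA molecule): at least 1000 UMIs, at most 10% of them mitochondrial, under 4% from the neutrophil genes S100a8 and S100a9, at least 2 from Cd3e, Cd3g and Trac together, at least 1 from Cd8a and Cd8b1 together, none from Cd4, Cd79a or Csf1r, and at most 1 from the chemokine gene Ccl5. The WT library came from C57BL/6J mice and the APP/PS1 library from transgenic mice that carry mutant APP and presenilin 1, a model of Alzheimer's disease. All mice were 7-month-old females, and the cells of 3 mice were pooled per genotype, so each genotype is 1 library and no difference between genotypes could be tested. Both preparations were labelled neutrophils and had passed an enrichment kit that removes other leukocytes, including T cells, before 10x Genomics v3.0 library preparation. The libraries held 17123 barcodes with 92458623 UMIs (WT) and 17645 barcodes with 84870864 UMIs (APP/PS1). They had 83 barcode sequences in common, none of them a member.

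CD8 T cells recognise peptides on MHC class I through the T cell receptor, with CD8 as coreceptor. A naive CD8 T cell, which has not yet met its antigen, circulates between blood and lymph nodes by way of the chemokine receptor CCR7, is kept quiescent and alive by IL-7 and by transcription factors such as TCF-1 (Tcf7) and LEF1, and makes little cytotoxic protein. Effector and memory CD8 T cells lose much of this program and gain granzymes, perforin, chemokines such as CCL5 and killer lectin-like receptors.

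The cells carried the RNA that their name calls for, beyond the genes that selected them. The genes used in the choice stood at 289 CPM (a gene's UMIs per 1000000 UMIs of the summed cells) in WT members and 337 CPM in those of APP/PS1 for Cd3e, 539 and 815 CPM for Cd3g, 257 and 310.1 CPM for Trac, 304 and 204 CPM for Cd8a, and 521 and 611 CPM for Cd8b1. These values describe the choice and are not a result. Cd3d, a CD3 chain that was not used, had a UMI in 55 of 56 WT and 21 of 22 APP/PS1 members and stood at 745 and 992 CPM, against 1.76 and 1.92 CPM in B cells and 7.66 and 49.5 CPM in neutrophils, of which 2.04% and 10.8% had a UMI. The defining genes Foxp3 and Cd40lg of regulatory and helper CD4 T cells, Ncr1 of NK cells, and Ms4a1 of B cells had no UMI in any member. The first pair separates little, since the 7 CD4 T cells had 0 UMIs of Foxp3 and 1 of Cd40lg in each library. Other genes of these lists were present: the 8 CD4 and regulatory genes held 5 (WT) and 7 UMIs, led by Ctla4 with 5 and 4, the 9 NK cell genes held 120 and 21 UMIs, led by Tyrobp with 85 and 13, which myeloid cells also make, and the 11 B cell genes 69 and 25 UMIs, led by Ighm with 54 and 21.

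Ccl5 divided the CD8 T cells into cells with almost none and cells with much. Of the cells that met every other criterion, 56 had 0 UMIs of Ccl5, 22 had 1, 2 had 2, none had 3, 1 had between 4 and 9, and 381 had 10 or more. The 384 cells with at least 2 (126 WT and 258 APP/PS1) are called Ccl5-positive CD8 T cells here. In 4 naive-cell genes (Ccr7, Lef1, Tcf7 and Il7r) the members with 1 UMI were no lower than those with none, at 2876 against 2312 CPM in sum, nor were the 2 WT cells just outside the limit, at 3691 CPM. Cells with 10 or more UMIs of Ccl5 stood at 319 CPM (exact Poisson 95% interval 289.5 to 351). The sum of 8 effector genes was 74.7 CPM at 0 UMIs, 74.0 CPM at 1 and 103 CPM at 2, and 9232 CPM at 10 or more. The fuller list of memory and effector genes, without Ccl5 and Ly6c2, was higher at 1 UMI (2081 CPM, 1818 to 2371) than at 0 (1252 CPM, 1125 to 1389.9). Without the highest member of each library, a choice made after seeing the data, it stood at 1069 and 1088 CPM. Intervals here cover counting error only, not the variation between mice.

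**Figure D1:**
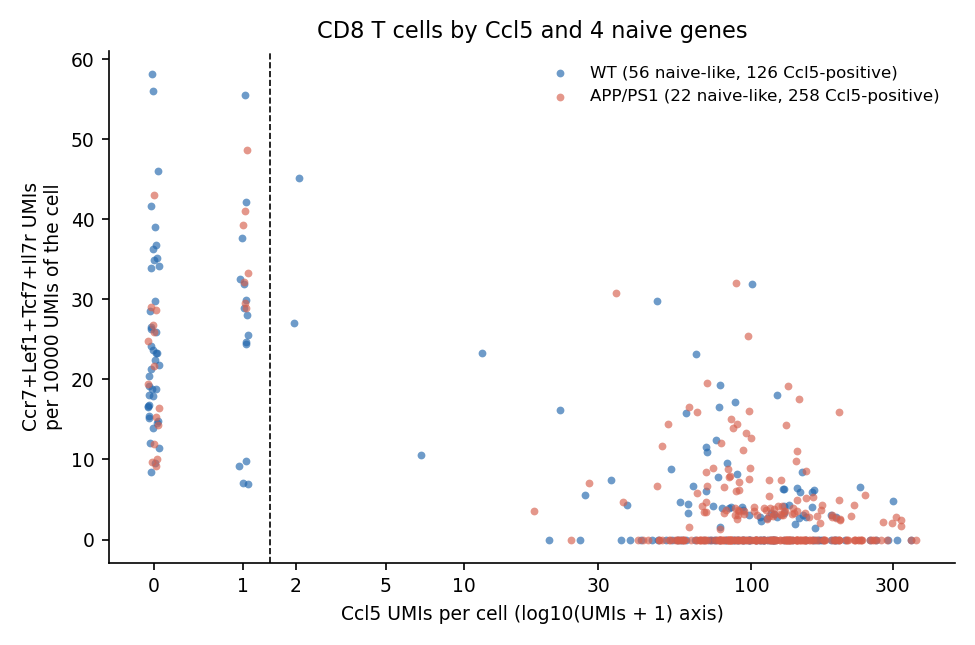
Each point is 1 CD8 T cell, with its Ccl5 UMIs on the x axis (log10(UMIs + 1)) and its UMIs of Ccr7, Lef1, Tcf7 and Il7r per 10000 UMIs on the y axis, coloured by library; the dashed line is the limit of 1 UMI. The 78 members lie left of the line, and 381 of the 384 Ccl5-positive cells have 10 or more UMIs of Ccl5.

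Of the other limits (cells with no UMI of Cd3e, Cd3g or Trac were not counted), the demand for CD8 took away the most cells. Only 4 cells, all WT, had 1 UMI of Cd3e, Cd3g and Trac in place of 2 and met the rest, and 7 cells stood outside the limit on S100a8 and S100a9 alone, 5 of them with 4 to 6% and 1872 CPM of the 4 naive-cell genes. A UMI of Csf1r alone barred 12 cells (1241 CPM), and one of Cd79a 2 cells. The limits on Cd4 and on mitochondrial UMIs barred none, and no cell with 500 or more but under 1000 UMIs would have qualified. By contrast, 141 cells (76 WT and 65 APP/PS1) met everything but had no UMI of Cd8a or Cd8b1, and also none of Cd4. Their 4 naive-cell genes summed to 1949.8 CPM and their 8 effector genes to 325 CPM. Whether these cells belong to the CD8 lineage could not be read from their counts.

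The members held more UMIs per cell than the Ccl5-positive CD8 T cells. WT members had 2919 to 9119 UMIs (median 4776) and APP/PS1 members 3103 to 6786 (median 5316), against medians of 3122 and 3127 in Ccl5-positive CD8 T cells. They summed to 276406 and 112869 UMIs, so 0 UMIs of a gene allows up to 10.9 CPM in the WT members and 26.6 CPM in those of APP/PS1 (3 UMIs per library).

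Naive-like CD8 T cells made up a smaller share of the APP/PS1 library than of the WT library. They were 0.344% of WT cells with at least 1000 UMIs (exact Clopper-Pearson 95% interval 0.260 to 0.446) and 0.132% of APP/PS1 cells (0.0825 to 0.199), a ratio of 0.382 (0.222 to 0.636). Ccl5-positive CD8 T cells went the other way, at 0.774% (0.645 to 0.921) and 1.54% (1.36 to 1.74), a ratio of 1.99 (1.60 to 2.49). B cells had a ratio of 1.14 (0.952 to 1.36), with an interval that includes 1. CD4 T cells, 5 in WT and 2 in APP/PS1, had a ratio of 0.389, with a wide interval that also includes 1 (0.0371 to 2.38). Among the CD8 T cells of both kinds, 30.8% were members in the WT library (24.2 to 38.0) and 7.86% were in the other (4.99 to 11.7). The intervals of the members do not overlap between the libraries by either denominator. The ratio depends on the demand for CD8: with the 141 cells that had no UMI of either CD8 gene or of Cd4, 132 WT and 87 APP/PS1 cells gave 0.642 (0.484 to 0.847). The enrichment step removes T cells, and its yield in each pool, the differences between mice and the genotype cannot be told apart.

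**Figure D2:**
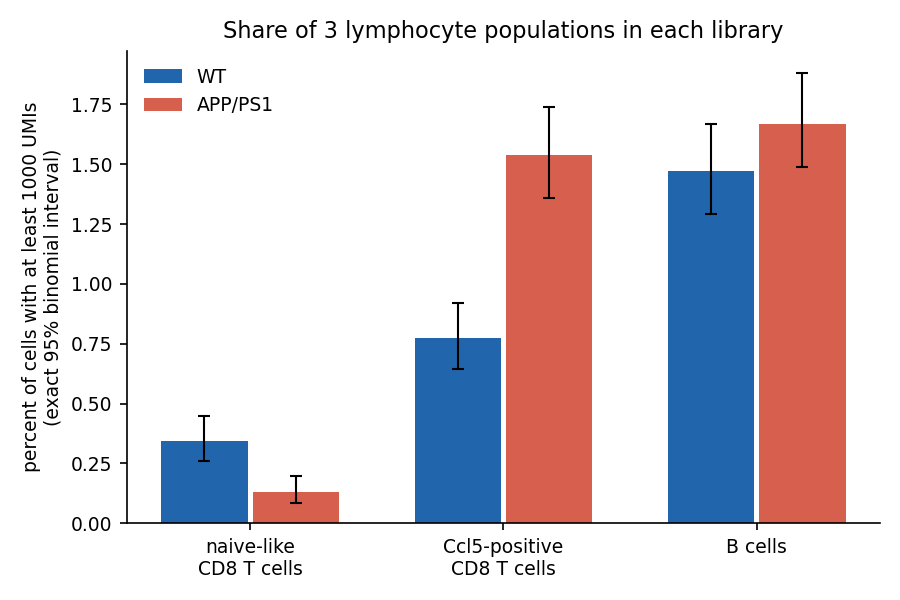
Bars give the percent of cells with at least 1000 UMIs that were naive-like CD8 T cells, Ccl5-positive CD8 T cells or B cells in the WT and the APP/PS1 library, and whiskers give exact 95% binomial intervals. Naive-like cells go from 0.344% to 0.132% while Ccl5-positive cells go from 0.774% to 1.54%.

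Every member had UMIs of naive-cell genes. Each of the 78 cells had UMIs from at least 2 of the 4 naive-cell genes, and 31 of 56 WT and 15 of 22 APP/PS1 members had all 4. At least 2 were found in 19.8% of WT and 12.4% of APP/PS1 Ccl5-positive CD8 T cells and in 2.50% and 1.43% of B cells, whose median depths were 4129.5 and 5535 UMIs. Of the CD4 T cells, 4 of 5 and 2 of 2 had at least 2. After each cell was thinned to 1000 UMIs, the shares were 55.4% and 45.5% in members and 6.35% and 2.33% in Ccl5-positive CD8 T cells. They were 0 of 240 and 0 of 280 B cells, which allows shares of up to 1.25% and 1.07%.

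To see which genes set the members apart, their summed UMIs per library were compared with those of the Ccl5-positive CD8 T cells by edgeR's quasi-likelihood test, with the library as replicate (2 sums per population) and as a block. Of 5879 genes tested, 412 (7.01%) were higher in the members and 359 (6.11%) lower at an adjusted p (Benjamini-Hochberg) under 0.05, and the median log2 fold change of all genes was -0.05. The Ccl5 limit that chose the members split these same cells, and both kinds of cell share their libraries. The folds and p-values below therefore describe the 2 populations and are not independent evidence that the members are naive.

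Of the 20 naive and quiescence genes, 14 were higher in the members, 1 lower and 5 not called, with a median log2 fold change of 2.08. Ccr7, the receptor that guides T cells into lymph nodes, stood at 615 CPM in the WT members and 540.4 CPM in those of APP/PS1, against 43.7 and 12.6 CPM in Ccl5-positive cells (log2 fold change 4.80, adjusted p = 2.47e-61). The members of both libraries were thus above the Ccl5-positive cells of both. The transcription factor Lef1 stood at 586 and 691 CPM against 85.3 and 76.5 CPM (3.29), Tcf7 at 452 and 452 CPM against 119 and 75.3 CPM (2.53), and the chromatin organiser Satb1 at 658 and 540.4 CPM against 81.1 and 30.8 CPM (3.78). Il7r, the IL-7 receptor chain, stood at 781 and 868 CPM against 193 and 130.1 CPM (2.71). For each of these 5 genes the 2 values of the members lay above the 2 values of the Ccl5-positive cells.

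Dapl1 and Igfbp4 had the highest folds of the list. Dapl1 stood at 177 and 142 CPM in the members and at 14.6 and 1.14 CPM in Ccl5-positive cells (log2 fold change 4.81), and Igfbp4, an insulin-like growth factor binding protein, at 76.0 and 97.5 CPM against 6.24 and 0 CPM (5.20). Actn1 (4.06), the repressor Bach2 (3.02), the forkhead factor Foxp1 (1.64) and S1pr1 (1.58), the receptor by which T cells leave lymph nodes, were also higher, and the antiproliferative gene Btg1 was higher by 0.87. Klf2, which drives S1pr1, was only just called at 0.43 (adjusted p = 0.0442; not called by DESeq2 or with total UMIs as the scale), with a log2 ratio of opposite sign in WT. Ms4a4b was the 1 gene of the list that was lower (-0.84). Outside the list, the genes with at least 200 UMIs and the highest folds included Emb, an adhesion protein gene (2.59), Vps37b, of the ESCRT sorting machinery (2.29), and Gm20186 (2.14).

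Effector genes were low or absent. Of 29 memory and effector genes without Ccl5, 25 were lower in the members, none higher and 4 not called, with a median of -3.07. DESeq2 called 18 of the 29 lower, without Gzmk, Prf1, Ifng, Itgb1, S100a4, Anxa1 and Ctsw. Gzma, which encodes granzyme A, had 3 UMIs in all members together (7.24 and 8.86 CPM) and stood at 5361 and 6184 CPM in Ccl5-positive cells (-9.11, adjusted p = 8.40e-158). Gzmb, granzyme B, had 1 UMI, in WT, against 580.4 and 613 CPM. Fasl, the death ligand, and the inhibitory receptor Klrg1 had 0 UMIs in the members, against 231 and 218 CPM for Fasl and 199.7 and 199.7 CPM for Klrg1. Gzma, Gzmb, Fasl and Klrg1 were thus at 0 to 2 UMIs in the members of each library. Prf1, perforin, was low but present, with 13 and 3 UMIs (47.0 and 26.6 CPM against 262 and 379 CPM, -2.51, adjusted p = 2.77e-11 by edgeR, 0.517 by DESeq2). The fractalkine receptor Cx3cr1 stood at 3.62 and 8.86 CPM against 379 and 462 CPM, and the effector regulator Zeb2 at 7.24 and 0 CPM against 628 and 613 CPM. Klre1, Gzmk, S1pr5 and the histone gene Hist1h1b, also among the 10 lowest with at least 200 UMIs, had 0 UMIs in the members and 121 to 380.0 CPM in the Ccl5-positive cells. The rest of these 10 were Gzma, Gzmb, Fasl, Klrg1, Cx3cr1 and Zeb2, and all 10 genes reached 200 UMIs only through the Ccl5-positive cells. Their place among the lowest follows from that floor and is not a result.

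Some genes of this list were lower without being absent. Nkg7, a protein of cytotoxic granules, stood at 326 and 275 CPM in the members against 2326 and 2934 CPM (log2 fold change -2.72), the lectin-like receptor chain Klrd1 at 213 and 230.4 CPM against 622 and 668 CPM (-1.19), and Ly6c2 at 127 and 159 CPM against 813 and 1115 CPM (-2.45). Il2rb, the IL-2 and IL-15 receptor chain, was lower by 2.43 on the log2 scale. Cd44, the adhesion receptor used to tell memory from naive cells, stood at 54.3 and 53.2 CPM against 156 and 114 CPM and did not pass (-0.99, adjusted p = 0.0502), nor did the chemokine receptor Cxcr3 (-2.52, adjusted p = 0.0649).

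**Figure D3:**
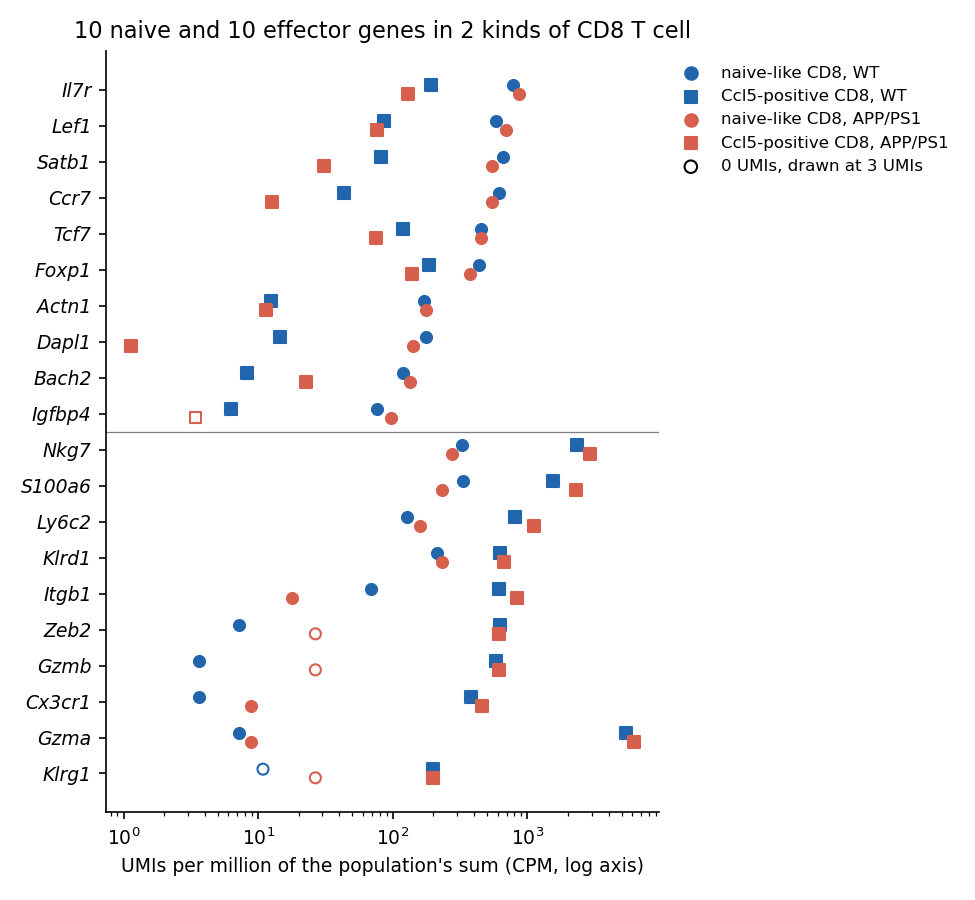
Levels (CPM, log axis) of 10 naive and 10 effector genes in naive-like (circles) and Ccl5-positive (squares) CD8 T cells of the WT and the APP/PS1 library; open symbols mark 0 UMIs and stand at 3 UMIs of that sum. Circles lie right of squares for the upper 10 genes (Ccr7 at 615 against 43.7 CPM in WT) and left of them for the lower 10 (Nkg7 at 326 against 2326 CPM in WT).

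Homing and cytokine receptors divided by gene. Of 16 homing genes tested, 5 were higher and 4 lower (5 and 2 by DESeq2, which lost Ccr2 and Itga4, and 5 and 8 with total UMIs as the scale). Besides Ccr7 and S1pr1, the higher ones included Ccr9, the gut-homing receptor of recent thymic emigrants and naive CD8 cells, at 119 and 79.7 CPM against 0 and 2.28 CPM (log2 fold change 6.47, adjusted p = 4.81e-16), and Itgae, the αE integrin chain CD103 (3.33). The lower ones were Ccr2 and the integrins Itga4, Itgal and Itgb2. Itgal and Itgb2, which pair as LFA-1, were lower by 1.94 and 2.02 on the log2 scale. Of 20 cytokine receptor and signalling genes, 6 were higher and 3 lower (5 and 2 by DESeq2, which lost Socs3 and Cish, and 5 and 5 with total UMIs). With total UMIs as the scale, 286 of all 5879 genes tested were higher and 818 lower. Il6ra (3.40) and Il6st (2.96), the chains of the IL-6 receptor, and Il4ra (2.02) were higher together with Il7r, and Il2rb, Il10ra and the feedback inhibitor Cish were lower.

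Most genes of receptor signalling and of antigen presentation were not called. Of 4 T cell receptor complex genes, Cd3d and Trbc2 were higher, and of 20 signalling genes 1 was called (higher), but DESeq2 called none of these lists. Of 14 MHC class I genes, 3 were lower, among them H2-K1 (-0.46) and H2-D1 (-0.53), whereas B2m stood at -0.00. Of 5 inhibitory receptor and Tox genes tested, Cd160, Entpd1 and Tox were lower by edgeR and none by DESeq2. Interferon response genes gave 5 higher and 1 lower of 24 (median 0.50), among the higher ones Slfn1 (1.32). Immediate early genes gave 5 and 1 of 23 (0.15), with Jun at 2.37 and the NF-κB inhibitor Nfkbia at 1.07. DESeq2 called 2 higher and 0 lower in each of these lists, and kept Slfn1 and Jun but not Nfkbia (adjusted p = 0.143). With total UMIs as the scale, immediate early genes gave 3 higher and 5 lower, interferon response genes 4 and 3, MHC class I genes 7 lower, and receptor signalling genes none higher and 4 lower. Under that scale 286 of all 5879 genes tested were higher and 818 lower, so these counts are not read as a result about the lists. Of 5 clock genes 1 (Bhlhe40) was lower, and of 7 glucocorticoid response genes 1 (Il7r) was higher. Of 6 thymocyte and cycling genes, Mki67, Top2a and Stmn1, all markers of dividing cells, were lower, with 0, 0 and 2 UMIs in all members together (Mki67 was not called by DESeq2, adjusted p = 0.129), and Ccr9 was higher.

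Ribosomal protein genes took a large part of the members' RNA. They made up 40.1% of UMIs in WT and 40.6% in APP/PS1 members, against 21.4% and 20% in Ccl5-positive CD8 T cells, 32.4% and 33.6% in the 7 CD4 T cells, 29.3% and 28.8% in B cells and 3.52% and 3.57% in neutrophils. Of 86 tested against Ccl5-positive cells, 80 were higher, none lower (median log2 fold change 1.25), and 11 of 13 mitochondrially encoded genes were higher (0.76). Thymosin β4 (Tmsb4x), which binds free actin, was lower in the members, at 8039 and 8629 CPM against 17534 and 17674 CPM. Members also had fewer different genes per cell at equal depth, with medians of 472 (WT) and 478 (APP/PS1) genes per 1000 UMIs, against 595 and 591. When sums were scaled by total UMIs alone, a choice made after seeing the data, the median of all genes moved to -0.40 and the calls to 286 higher and 818 lower. Of the 86 ribosomal protein genes, 82 lay above the median of all genes under either scale.

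Genes of other blood cells were present, and some differed between the members and the Ccl5-positive cells. The 12 neutrophil genes summed to 3473 and 1639 CPM in the members and 3141 and 3754 CPM in Ccl5-positive cells, and the 6 erythroid genes to 705 and 505 CPM against 37242 and 13283 CPM. Haemoglobin Hbb-bs stood at 289 and 301 CPM in the members and at 17561 and 6322 CPM in Ccl5-positive cells, and all 4 erythroid genes tested were lower in the members (median log2 fold change -5.18). Of 7 neutrophil genes none was called (0.20). Of 6 NK cell genes 4 were lower (Gzma, Klrb1c, Klre1 and Ncr1), of 4 monocyte genes 1 (Ccr2), of 3 platelet genes 1 (Pf4) and of 10 B cell genes 2 (Cd74 and H2-Aa). Of these 8 calls, DESeq2 kept only that of Gzma. The B cell gene Ighm, the IgM heavy chain, was higher in the members, at 195 and 186 CPM against 25.0 and 14.8 CPM (3.66). It had a UMI in 30 of 56 WT and 11 of 22 APP/PS1 members. Thinned to 1000 UMIs, these shares were 10.7% and 9.09%, against 1.59% and 1.55% in Ccl5-positive CD8 T cells and 9% and 6.60% in neutrophils, which do not make the gene. Of 2 CD4 and regulatory T cell genes, Ikzf2 was lower by edgeR (adjusted p = 0.00290) and not called by DESeq2 (adjusted p = 0.852). The part of free RNA or of attached cells in these results was not tested.

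CD4 T cells, with Cd4 and no CD8 UMIs, were only 7 (5 WT and 2 APP/PS1), so the comparison with them is weak. They had no limit on Ccl5, which stood at 2631 and 1131 CPM in them against 54.3 and 62.0 CPM in the members. The folds below thus set cells limited in Ccl5 against cells that were not, and are not a comparison of naive CD8 with naive CD4 cells. In the same fit 151 genes (2.57%) were higher in the members and 12 (0.204%) lower, but the median of all genes was at 0.59, and at -0.15 when sums were scaled by total UMIs alone, with 8 higher and 27 lower. Crip1, a small LIM-domain protein, was lower in the members, at 474 and 416 CPM against 2368 and 2333 CPM (log2 fold change -1.57, adjusted p = 7.46e-09 by edgeR). The interferon-inducible gene Ifi27l2a stood at 543 and 389.8 CPM against 1842 and 1343 CPM (-0.97, adjusted p = 0.0119). Ccr7 was higher, at 615 and 540.4 CPM against 150.3 and 212 CPM (2.58, adjusted p = 4.79e-06). With only these 2 populations in the fit, where 814 genes were tested, none was called, and the adjusted p-values (edgeR) were 0.0609 for Crip1, 0.157 for Ifi27l2a and 0.205 for Ccr7. Lef1, at 586 and 691 CPM against 752 and 495 CPM, was not called (0.73, adjusted p = 0.350).

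Within the members, the WT and APP/PS1 cells were alike in most abundant genes. Genes with at least 200 UMIs over both libraries numbered 185 without those of the choice, of 10334 detected, and genes at this floor held 63.0% of the UMIs. Their median log2 ratio of APP/PS1 over WT was 0.02. Only 3 of the 185 (1.62%) were higher by over 0.5 log2 in APP/PS1 members and 7 (3.78%) lower. With 1 library per genotype these are differences between the libraries, and their exact 95% intervals, all 10 on 1 side of 0, cover counting error only.

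Jun, a subunit of the AP-1 transcription factor made within minutes of many stimuli, had the highest ratio. It lies at chr4:95049034-95052222 (mm10), and stood at 376 CPM in the WT members and 966 CPM in those of APP/PS1 (log2 ratio 1.36, 0.96 to 1.76). WT members had 0 to 10 UMIs (median 1, with a UMI in 38 of 56) and APP/PS1 members 0 to 17 (median 3.50, with a UMI in 18 of 22). The cells of the libraries overlapped, and 4 of the 22 APP/PS1 members held 56 of its 109 UMIs there. Without these 4 cells the APP/PS1 members stood at 585 CPM (0.64, 0.13 to 1.13), and without the 4 highest of each library the values were 289 and 585 CPM (1.02, 0.48 to 1.54). Jun was also higher in the APP/PS1 library in Ccl5-positive CD8 T cells (0.46), B cells (0.75) and neutrophils (0.79). Whether the larger value in the members differs from these beyond the variation between mice could not be tested.

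Ltb and Klf2 were the other genes that were higher. Ltb, the membrane anchor of lymphotoxin, stood at 517 and 895 CPM (0.79, 0.41 to 1.17), with medians of 2 and 4 UMIs per member. Klf2 stood at 1758 and 2507 CPM (0.51, 0.30 to 0.73) and lay at the limit. Its log2 ratio was 0.17 in Ccl5-positive CD8 T cells, 0.28 in B cells and 0.43 in neutrophils, but -1.02 (-2.13 to -0.04) in CD4 T cells. The log2 ratio of Ltb was 0.57 in Ccl5-positive CD8 T cells and 0.50 in neutrophils but -0.05 in B cells.

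Rpl29, a protein of the large ribosomal subunit, had the lowest ratio. It lies at chr9:106429454-106431568 and stood at 1744 CPM in the WT members and 718 CPM in those of APP/PS1 (-1.28, -1.64 to -0.94), with 1 to 19 UMIs per WT member (median 8.50) and 0 to 10 per APP/PS1 member (median 3). The same gene was also lower in the APP/PS1 library in Ccl5-positive CD8 T cells (-1.12), CD4 T cells (-0.96), B cells (-0.85) and neutrophils (-0.80). The direction of the Rpl29 difference was thus shared by the other 4 populations.

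The remaining 6 lower genes were not alike in the other populations. The adhesion protein gene Emb stood at 807 and 408 CPM (-0.99, -1.48 to -0.52), against a log2 ratio of 0.22 in Ccl5-positive CD8 T cells and -0.60 in B cells. Gm8369 stood at 637 and 328 CPM (-0.96), with -1.08 in B cells but -0.15 in Ccl5-positive CD8 T cells. Zfp36l2, which binds AU-rich mRNA and promotes quiescence of lymphocytes, stood at 637 and 408 CPM (-0.64). Its log2 ratio was -0.35 in Ccl5-positive CD8 T cells and -0.66 in B cells. It was 0.09 in neutrophils and 0.40 (-0.70 to 1.45) in CD4 T cells. Ptprc, the CD45 phosphatase, stood at 1349 and 868 CPM (-0.64) and γ-actin (Actg1) at 876 and 576 CPM (-0.60), with -0.01 and 0.01 in Ccl5-positive CD8 T cells. Xist, the RNA of the inactive X chromosome, stood at 929.8 and 567 CPM (-0.71), in mice that were all female. Its log2 ratio was -0.34 in Ccl5-positive CD8 T cells and in neutrophils and -0.03 in B cells. In CD4 T cells it was 0.61 (-0.41 to 1.60). The next genes inside the limit were Ubb (0.49) and Akap13 (-0.47).

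**Figure D4:**
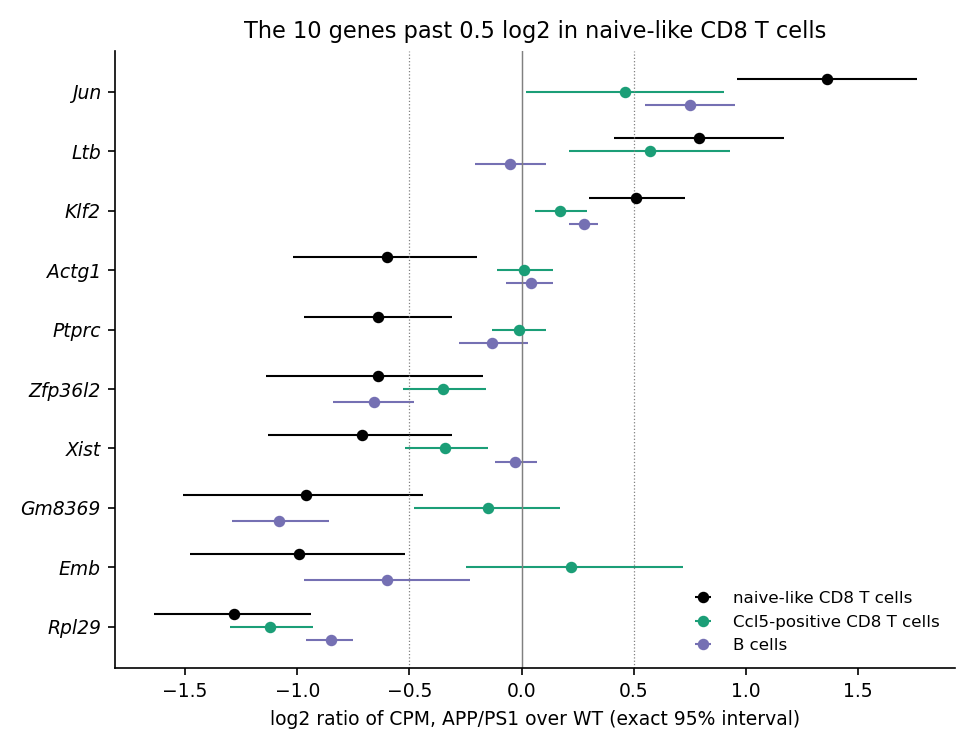
Log2 ratios of CPM, APP/PS1 over WT, with exact 95% intervals (counting error only) for the 10 genes past 0.5 log2 (dotted lines) in naive-like CD8 T cells, beside Ccl5-positive CD8 T cells and B cells. Jun is highest at 1.36 and Rpl29 lowest at -1.28, and Rpl29 is below 0 in all 3 populations.

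The naive-cell genes themselves differed little between the libraries. Lef1 stood at 586 and 691 CPM, Tcf7 at 452 and 452 CPM, Il7r at 781 and 868 CPM and Ccr7 at 615 and 540.4 CPM, and none of these was past 0.5 log2. Of the 9 naive and quiescence genes with at least 200 UMIs, 1 was higher past that limit, Klf2 (0.51), and none lower.

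A few members stood apart from the rest. One WT member held 316 and another 109 of the 960 UMIs from 12 neutrophil genes in WT members, led by S100a9 (139) and S100a8 (100), while the median member held 8.50. In APP/PS1 members the highest was 20 of 185 UMIs. The list stood at 3473 CPM in the WT members and 1639 CPM in those of APP/PS1, and at 2057 CPM (1886 to 2239) and 1460.3 CPM (1235 to 1715) without the 2 highest of each. For the 29 memory and effector genes, 1 WT member held 118 of 461 UMIs, led by S100a6 and S100a4, and 1 APP/PS1 member held 52 of 169, and the sums were 1668 and 1497 CPM with these cells and 1273 and 1089 CPM without. Both of these cells had 5 UMIs of the 4 naive-cell genes. The γδ T cell receptor gene Trdc had 2 UMIs in 1 WT member and 6 in 1 APP/PS1 member, which hold all its UMIs. It was the only 1 of 8 γδ and innate-like T cell genes abundant enough to be tested against Ccl5-positive cells (log2 fold change 2.91, called higher by edgeR and not by DESeq2), and its fold rests on these 2 cells.

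**Figure D5:**
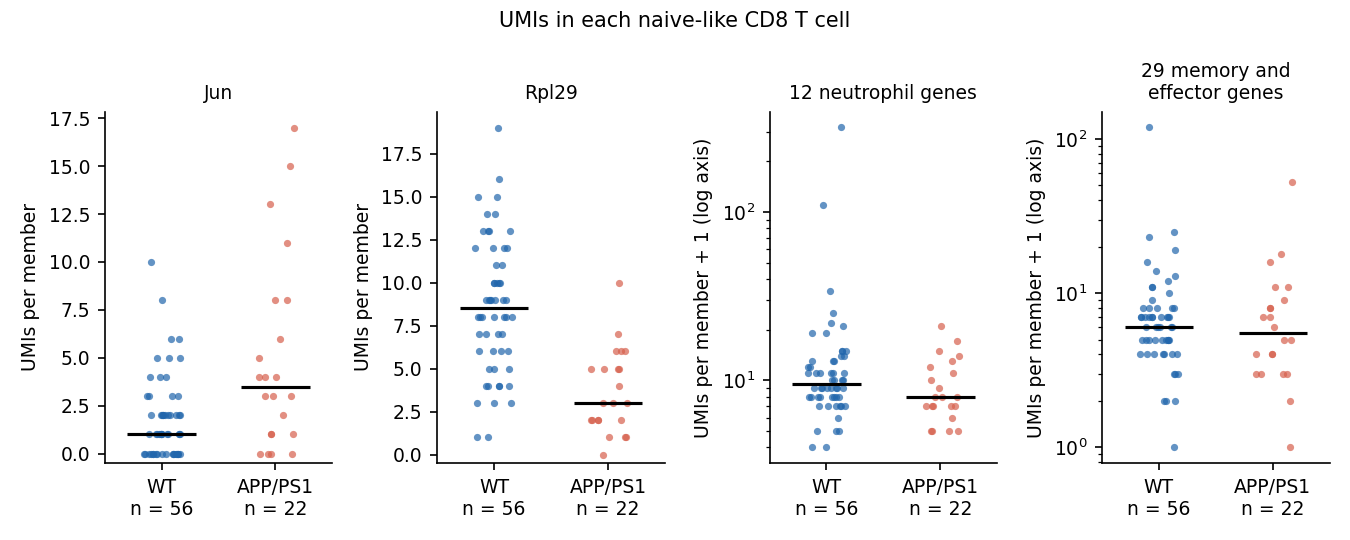
UMIs in each of the 56 WT and 22 APP/PS1 members for Jun, Rpl29, 12 neutrophil genes and 29 memory and effector genes (the last pair as UMIs + 1 on a log axis), with the median as a line. Jun medians are 1 and 3.50 and Rpl29 medians 8.50 and 3, and 1 WT member reaches 316 neutrophil-gene UMIs.

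The members were also split by Ly6c2. Ly6c2, a surface protein that some naive and most memory CD8 T cells carry, had a UMI in 16 members and none in 62. The 4 naive-cell genes summed to 2455 CPM (2139 to 2805) with Ly6c2 and 2473 CPM (2298 to 2657) without. Nkg7 stood at 543 CPM (400.4 to 720.1) with and 243 CPM (190.2 to 305) without, a gap carried by WT (603 against 238 CPM), since the intervals overlap in APP/PS1 (362 CPM, 156 to 714, against 253 CPM, 161 to 380.1). The WT gap rested in part on the 1 member that was highest in memory and effector genes, since Nkg7 stood at 405 CPM (259.6 to 603) against 238 CPM (177 to 314) without it. S100a4 and S100a6 together stood at 995 CPM with Ly6c2 and 290.3 CPM without in WT, and at 90.6 and 518 CPM in APP/PS1. Both gaps came from 1 cell per library: without the highest member of each, the values were 135 and 290.3 CPM in WT and 90.6 and 70.3 CPM in APP/PS1. Dapl1 stood at 339 CPM (229 to 485) with Ly6c2 and 116 CPM (81.0 to 162) without over both libraries. The intervals overlap in WT (184 to 466 against 92.4 to 198) and not in APP/PS1 (217 to 833 against 24.3 to 144). This split was made after seeing the data and its values are a description of these cells.

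The T cell receptor chains were varied as far as 3′ reads show them. Trbc1 and Trbc2, near-identical constant region genes that can share reads, gave 36.6% Trbc1 among their UMIs in WT and 33.6% in APP/PS1 members, against 53.0% and 21.5% in Ccl5-positive CD8 T cells. A Trbv gene was seen in 13 of 78 members (4 of 56 WT and 9 of 22 APP/PS1), spread over 9 genes. A Trav gene was seen in 7 members (6 WT and 1 APP/PS1), each with a different gene. These counts rest on only 14 Trbv and 11 Trav UMIs.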

How the data were processed

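Blood of 3 mice per genotype was pooled, neutrophils were enriched, and 1 10x Genomics library was made per genotype. The authors deposited raw UMI counts per gene and barcode, made per the labels with Cell Ranger 5.0.0 and mm10, for all barcodes called cells and with no normalization. Cells were chosen by the UMI limits given above, and B cells by at least 2 UMIs of Cd79a and none of the T cell genes. The members and gene lists were chosen with earlier results of these data known.

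UMIs were summed per library and population and given as CPM, with exact 95% intervals (Poisson, Clopper-Pearson, or binomial given the total; SciPy 1.17.1, NumPy 2.4.6, pandas 2.3.3, Python 3.11.15). Genotypes were not tested. Populations were compared with edgeR 4.0.16 (R 4.3.3) on 8 sums of 4 populations (TMM, filterByExpr, library block), with Benjamini-Hochberg adjustment and a threshold of 0.05. The 2 sums of a population come from pooled animals of different genotype. With the library as a block, p-values rest on how far differences between populations vary between the 2 libraries. That spread was estimated over all 4 populations together, the few CD4 T cells included, and does not measure variation between mice. Named were members of gene lists, the 10 highest and 10 lowest ratios or called folds among genes with at least 200 UMIs, and the 20 most abundant genes. Genes used in the choice were left out of counts of calls. Alternatives were other cell limits, DESeq2 1.42.0, RLE, other scalings and UMI floors, and doublet removal. Doublets were kept. Scrublet (in scanpy 1.11.5, expected rate 8%) called 9.04% of WT cells, and 7.29% of APP/PS1 cells at the WT threshold, since its own threshold called 0 there; it called 1 WT member. Of 32285 gene IDs, 32158 were found in GENCODE M21 (mm10), which gave coordinates. Thinning drew 1000 UMIs per cell without replacement. Some genes of the lists are counted but not reported by name here.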

Additional observations from a re-analysis of the deposited data

Results flagged for a closer look

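The share of naive-like CD8 T cells and that of Ccl5-positive CD8 T cells differed between the libraries in opposite directions, with log2 ratios of APP/PS1 over WT of -1.39 and 1.0. The summed T cell receptor complex genes that the choice did not use (Cd3d, Cd247, Trbc1 and Trbc2) went from 2797 to 3331 CPM in the members (log2 ratio 0.25) and from 3147 to 2126 CPM in Ccl5-positive CD8 T cells (-0.57). In the latter, Trbc1 stood at 1225 CPM (WT) and 266 CPM (APP/PS1). Neutrophil genes without S100a8 and S100a9 had a log2 ratio of -1.36 in the members and 0.54 in Ccl5-positive CD8 T cells, and 1 WT member held 316 and another 109 of the 960 UMIs of the list with those 2 genes. NK cell genes had a log2 ratio of -1.22 in the members and 0.18 in Ccl5-positive CD8 T cells. Tyrobp (85) and Fcer1g (33), which myeloid cells also make, gave nearly all of the 120 UMIs in WT. The 2 WT members highest in neutrophil genes were also highest here, with 30 and 32 UMIs, and without the 2 highest of each library the list stood at 223 CPM (169 to 288) and 137 CPM (75.0 to 230.2), with intervals that overlap. Shisa5 stood at 698 and 948 CPM in the members (0.44) and at 597 and 531 CPM in B cells (-0.17). Each pair was set apart because the intervals of the 2 ratios lay on opposite sides of 0. With 1 library per genotype, none of these differences was tested.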

How the results depend on the processing

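The ratio of shares between the libraries was 0.356 to 0.397 under the planned cell limits, with doublets removed and over all barcodes, 0.261 over the 3 T cell populations and, in an alternative added after seeing the data, 0.642 with no demand for CD8. The count of genes past 0.5 log2 between genotypes (10) was 4 with members at 0 UMIs of Ccl5 (141 genes tested), 167 with a floor of 50 UMIs (793 genes) and 0 with a floor of 1000 UMIs (84 genes). Of the 10, Jun stayed between 1.12 and 1.43 and Rpl29 between -1.38 and -1.28 over 12 settings, with Jun at 0.64 once its 4 highest APP/PS1 members were left out (added after seeing the data), and Klf2 was past 0.5 in 7 of 12. Zfp36l2 (-0.77 to -0.27), Ptprc (-0.74 to -0.49) and Actg1 (-0.84 to -0.39) were past it in 11 of 12. Xist ranged from -1.29 to -0.67. Removing 3 WT and 1 APP/PS1 members with over 50 neutrophil-gene UMIs or any Trdc, an alternative added after seeing the data, gave 11 genes. Against Ccl5-positive CD8 T cells, DESeq2 called 426 genes (424 shared with the 771), and total UMIs alone, also added after seeing the data, gave 286 higher and 818 lower. Of 91 list genes called by edgeR, DESeq2 called 56 and lost 35, among them Klre1 and Gzmk (adjusted p = 0.311 and 0.498), Prf1, Ifng, Mki67, Itga4, Itgb1, S100a4, Cish, Ikzf2, Nfkbia, Klf2, Cd3d and Trbc2, and total UMIs kept 82. Against CD4 T cells, 35 genes were called with total UMIs alone (8 higher and 27 lower, against 151 and 12) and 0 with only the 2 populations in the edgeR fit, where 814 genes were tested. That fit changed the spread, the genes tested and the scaling together (the median of all genes went from 0.59 to -0.06), and which of these took the 163 calls away was not tested. None of the 91 changed direction under these 2 settings, and neither did any ratio named between genotypes over its 12 and the added ones, but with total UMIs the median of immediate early genes went from 0.15 to -0.21, those of neutrophil and glucocorticoid response genes from 0.20 to -0.16, cytokine receptors from 0.19 to -0.16, clock genes from 0.17 to -0.18, receptor signalling from 0.04 to -0.31 and that of all genes against CD4 T cells from 0.59 to -0.15. Genotypes could not be paired, because the labels carry no replicate numbers and each genotype is 1 library. In the comparisons of populations the library was the block, so populations were compared within each library. Depth limits genotype comparisons to the abundant genes.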
